A study of Mus musculus with 88 samples.

Results

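Cloned mouse embryos often fail to switch on part of the genome that fertilised embryos transcribe at the late 2-cell stage. The 113 genes described here were low in cloned embryos that received control mRNA and higher in cloned embryos that received Obox3 mRNA. They were chosen from the 55364 genes of the embryo table by their group means in TPM (transcript abundance corrected for gene length, with the same total in every library). The mean in fertilised embryos had to be at least 10 TPM, the mean in EGFP-injected clones at most 1/3 of it, and the mean in Obox3-injected clones at least 1/2 of it. Genes of multicopy 2-cell families, predicted genes, genes with a symbol ending in Rik, and microRNA and small nucleolar RNA genes were dropped by symbol. Ribosomal, proteasomal, translation and RNA polymerase genes were dropped in the same way. The dropped symbols were those of 444 of the 844 genes low in the EGFP clones and 110 of the 223 recovered genes. Of the 4768 genes at the minimum with a symbol that was kept, 400 (8.39%) were low in the EGFP clones, and 113 of these 400 (28.25%) reached 1/2 of the fertilised level with Obox3. The other 287 are called unrecovered below.

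3 groups of wild-type late 2-cell embryos were compared, with 2 libraries of total RNA each. SCNT_Obox3_L2C and SCNT_EGFP_L2C were made by somatic cell nuclear transfer, in which the nucleus of a BDF1 cumulus cell was put into an enucleated oocyte, and the reconstructed embryo was injected with mRNA at 10 ng/µl, coding for Obox3 in the first group and for EGFP in the second. ICSI_L2C embryos came from intracytoplasmic sperm injection (BDF1 x BDF1) and received neither mRNA nor a somatic nucleus. The same genes were then followed in wild-type male mouse embryonic stem cells of a C57BL/6 and 129 hybrid background, grown with LIF, PD0325901 and CHIR99021 and transfected with plasmids. ES_Obox3, ES_Obox5, ES_Obox6, ES_Dux and ES_Empty (plasmid without a gene) had 2 libraries each, and 9 further constructs had 1 library each. Transfection reaches some cells of a dish only, and plasmid expression is not the level of an embryo. Nothing in the labels ties the 2 libraries of a group to separate cultures or collections, so the spread between them may be technical.

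Obox proteins are homeodomain transcription factors made in mouse oocytes and early embryos. Homeodomains of their kind are related to those of Otx and Crx, which bind DNA with the core letters TAATCC. In the mouse the major wave of embryonic transcription occurs at the late 2-cell stage, when maternal RNA is cleared and genes for transcription, RNA processing and ribosome assembly are switched on. A nucleus taken from a somatic cell carries the chromatin of its tissue into this step, and many genes are transcribed less from it than from the nuclei of a fertilised embryo.

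The 6 embryo libraries had between 15604 and 16450 genes at 1 TPM or more, and the 10 most abundant genes took between 57.4% and 72.6% of all TPM. The share was 67.9% and 68.0% in the Obox3 clones, 72.6% and 69.3% in the EGFP clones and 60.1% and 57.4% in ICSI embryos, and since TPM sum to a constant, a larger share leaves less for every other gene. On a transcript of 1 kb, 1 TPM stood for 5.06 to 13.9 reads in the embryo libraries and for 3.72 to 7.37 reads in the replicated stem cell groups. Obox3 stood at 6.74 and 5.02 TPM in the Obox3 clones, 0.470 and 3.22 TPM in the EGFP clones and 78.7 and 64.6 TPM in ICSI embryos. Obox3-ps5 had 56.8 and 62.4 TPM in Obox3 clones, 1.19 and 6.87 TPM in EGFP clones and 118 and 99.5 TPM in ICSI embryos. By its symbol it is a copy of Obox3, and their likeness was not measured. In ES_Obox3, Obox3-ps5 stood at 451 and 263 TPM and Obox3 at 1.75 and 1.59 TPM, with both at 0 in ES_Empty. Reads of the plasmid may thus be counted on Obox3-ps5, and the level of the injected mRNA is uncertain between the copies. Of 19 markers of cumulus cells, the donor tissue, Ptx3 and Lum were at 0 in all 6 libraries. Vim was 0.424 and 0.267 TPM in Obox3 clones, 1.68 and 0.536 TPM in EGFP clones and 0.0569 and 0.0417 TPM in ICSI embryos. Vcan was 0.824 and 0.420 TPM in Obox3 clones, 0.702 and 0.433 TPM in EGFP clones and 0.0326 and 0.0683 TPM in ICSI embryos. In both genes every clone library lay above both ICSI libraries. The same order was seen in Col4a1, Cyp11a1 and Ptgs2, and not in others such as Serpine2 and Tnfaip6. The list summed to 24.6 to 26.0 TPM in the Obox3 clones, 18.9 to 20.8 TPM in the EGFP clones and 29.2 to 32.5 TPM in ICSI embryos. Of these sums, Amhr2 gave 15.9 and 17.6 TPM in the Obox3 clones and 6.82 and 10.7 TPM in the EGFP clones. In total RNA of whole embryos, fewer cells or embryos transcribing a gene and less RNA per cell cannot be told apart.

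All 113 genes were still detected in the EGFP clones, so they were low rather than silent. Their mean there ran from 1.39 to 231 TPM, with a median of 14.5 TPM, against a median of 48.7 TPM and a range of 10.0 to 701 TPM in ICSI embryos. As a share of the ICSI level, the EGFP clones held 8.97% to 33.3% with a median of 28.5%, and the Obox3 clones from the limit of 1/2 up to 106%, with a median of 58.8%. The fold of Obox3 clones over EGFP clones had a median of 2.12 and ran from 1.52 to 8.68. These ratios are those the genes were chosen by, so they describe the set and test nothing. On the TPM scale 3 members (Ovol2, Gldc and Ccdc137) reached the ICSI mean, 28 reached 2/3 of it and 85 lay between 1/2 and 2/3. These counts depend on the scale: after median-ratio scaling of the same 113 genes, 8 reached the ICSI mean and 73 reached 2/3 of it, with a median of 70.7% of ICSI.

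The summed TPM of the members were 5569 and 5452 in the Obox3 clones, 2134 and 2877 in the EGFP clones and 8861 and 9334 in ICSI embryos. Both Obox3 libraries lay above both EGFP libraries for 112 members, all but Neurl2, an order that the choice of members largely fixes. It held for 38.2% of the 4768 genes at the ICSI minimum, most of which did not meet the limits. Remarks below on the order of the embryo groups in single members describe the same chosen values. Both Obox3 libraries lay below both ICSI libraries for 102 members, against 63.9% of those genes. The 2 EGFP libraries were not alike. Replicate 1 was below replicate 2 for 107 members (82.4% of the genes at the ICSI minimum), and replicate 2 was higher by a median of 1.35-fold over the members. The Obox3 libraries differed by a median of 1.11-fold in either direction, and the ICSI libraries by 1.17-fold.

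**Figure D1:**
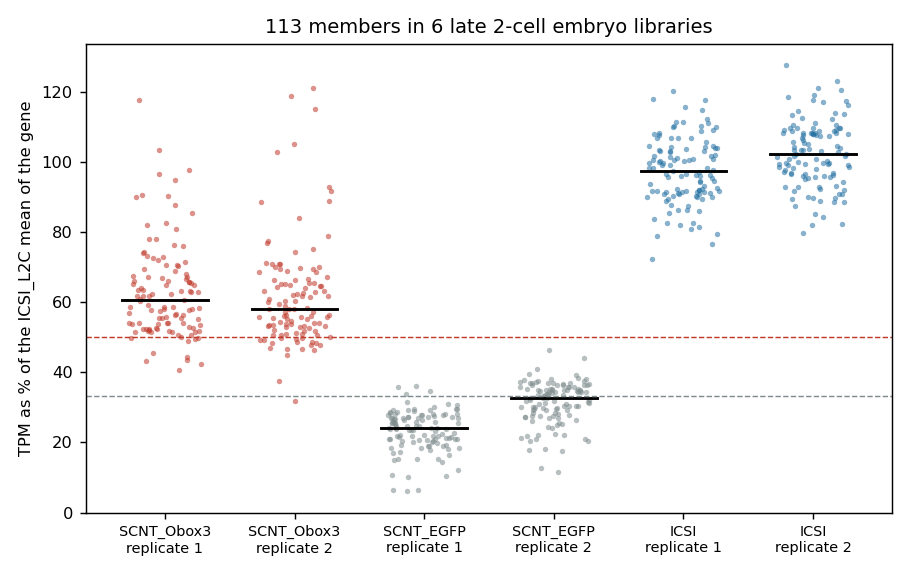
Each point is 1 of the 113 members, given as the TPM in 1 library in percent of that gene's mean over the ICSI_L2C libraries. Black bars are medians over the members, and the dashed lines mark 50% (red) and 1/3 (grey), the limits that the group means had to meet. The points of the SCNT_Obox3 libraries lie mostly between 40% and 100%, and those of SCNT_EGFP replicate 1 lie lower than those of replicate 2.

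Which genes pass depends on the EGFP libraries and on the scale. With EGFP replicate 2 alone, 69 genes passed, 60 of them members, and with EGFP replicate 1 alone 211 passed, among them 109 members. After dividing each library by a median-ratio size factor, 100 genes passed, of which 55 were members. Of the 58 members that no longer passed, 54 had moved above 1/3 of ICSI in the EGFP clones. Just inside the limit on the EGFP clones lay Snapc5 (33.3% of ICSI) and Tor2a (33.1%), and just outside lay Calcoco2 and Selenot (both 33.4%). Cops6 and Katna1 lay at the limit on the Obox3 clones from inside, with Dynll1 (49.9%) and Tmem79 (49.8%) just outside. At the ICSI minimum, D5Ertd577e (10.0 TPM) and Plcd4 (10.2 TPM) were inside, and Mbip (9.85 TPM) and Zfp410 (9.81 TPM) outside.

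**Figure D2:**
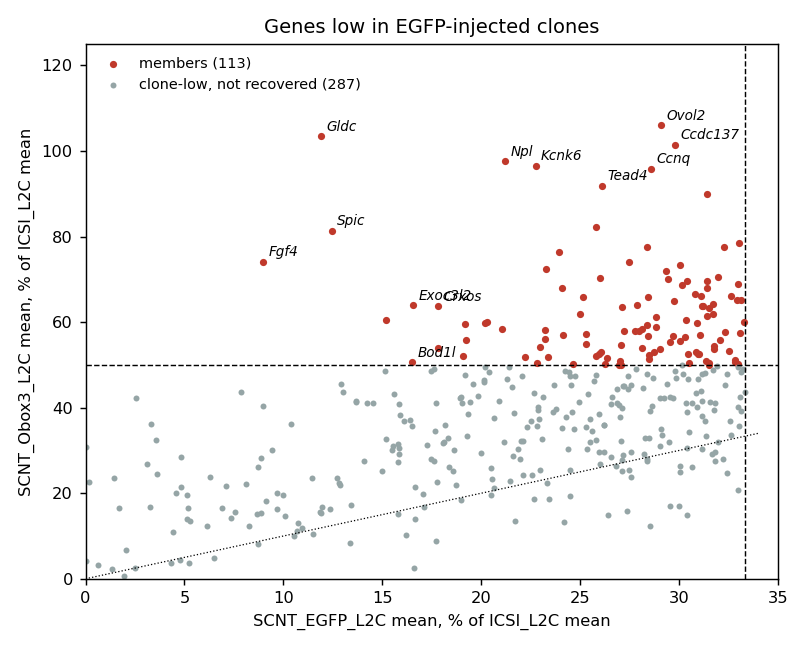
Each point is 1 of the 400 genes low in EGFP-injected clones, with the SCNT_EGFP_L2C mean (x axis) and the SCNT_Obox3_L2C mean (y axis) in percent of the ICSI_L2C mean. Red points are the 113 members and grey points the 287 unrecovered genes, dashed lines mark the limits of 1/3 and 50%, and the dotted line marks equal values. Ovol2, Gldc and Ccdc137 lie above 100%, while most members lie just above the 50% line.

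Of the 113 members, 112 had an entry in RefSeq on GRCm38.p6, 108 of them protein coding and 4 pseudogenes. 39 members overlapped another RefSeq gene, and since the strand setting of the counting is not given in the sources used here, reads of such pairs may be shared. The pairs Taf9 with Ak6 (chromosome 13) and Neurl2 with Ctsa (chromosome 2) overlap each other and may not be independent. Promoter windows of 250 bases before to 50 bases after an annotated start were given for 89 members. The letters TAATCC, read on either strand as TAATCC or GGATTA, were in the window of 6 members (6.74%: Alppl2, Mbl2, Plcd4, Snapc5, Wsb1 and Znhit6), against 8.14% of 27025 genes with a window. The letters TATAAA on either strand were in 4 members (4.49%), against 15.7% of the genes. The windows of members had a median GC content of 59.7% and a median of 21 CpG, against 52.8% and 7 CpG over all genes, most of which are not expressed at the ICSI minimum.

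4 windows are shown, 3 for members with large changes in stem cells described further on (Alppl2, Crxos and Slc1a1) and 1 for Wsb1, the member with the most matches. They are RefSeq sequences of GRCm38.p6, written 5′ to 3′ on the strand of the gene, with each TAATCC or GGATTA in capitals. The Alppl2 window (chr1:87089879-87090178, minus strand) lies at an annotated start inside the gene's span and holds 1 match, which begins 79 bases before the start. The Crxos window (chr7:15882367-15882666, plus strand) and the Slc1a1 window (chr19:28834885-28835184, plus strand) hold none. The Wsb1 window (chr11:79254646-79254945, minus strand) holds 2. A match is a run of letters and not a binding site, and a window without one says nothing on binding.
Alppl2: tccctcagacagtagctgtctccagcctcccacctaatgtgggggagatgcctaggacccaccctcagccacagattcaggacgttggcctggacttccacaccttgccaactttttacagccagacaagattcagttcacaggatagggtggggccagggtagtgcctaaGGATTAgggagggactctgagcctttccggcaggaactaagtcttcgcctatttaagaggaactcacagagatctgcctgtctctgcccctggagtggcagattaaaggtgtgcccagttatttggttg
Crxos: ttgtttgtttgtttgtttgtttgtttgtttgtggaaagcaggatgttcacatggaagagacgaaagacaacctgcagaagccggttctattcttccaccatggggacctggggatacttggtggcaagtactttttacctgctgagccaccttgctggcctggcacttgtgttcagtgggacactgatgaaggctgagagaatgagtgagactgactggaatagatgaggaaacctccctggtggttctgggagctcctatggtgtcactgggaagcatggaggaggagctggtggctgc
Slc1a1: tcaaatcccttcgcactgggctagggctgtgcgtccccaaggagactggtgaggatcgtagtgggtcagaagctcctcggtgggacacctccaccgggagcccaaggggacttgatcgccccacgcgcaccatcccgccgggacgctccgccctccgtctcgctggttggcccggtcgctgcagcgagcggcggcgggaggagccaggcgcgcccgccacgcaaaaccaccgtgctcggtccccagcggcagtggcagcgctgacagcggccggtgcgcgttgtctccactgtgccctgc
Wsb1: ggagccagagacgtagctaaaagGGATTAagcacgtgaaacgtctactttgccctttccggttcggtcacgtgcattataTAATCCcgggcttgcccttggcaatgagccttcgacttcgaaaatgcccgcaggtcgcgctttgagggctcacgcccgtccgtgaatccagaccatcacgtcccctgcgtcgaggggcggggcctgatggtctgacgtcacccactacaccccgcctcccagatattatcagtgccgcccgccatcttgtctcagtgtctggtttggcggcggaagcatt
The Crxos window starts with a repeat of TTTG letters and has 2 CpG, that of Alppl2 has 3, and those of Slc1a1 and Wsb1 are CpG rich, with 32 and 25.

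Roles were given to members from general knowledge after their values had been seen. The most abundant member was Magoh (chromosome 4, 107879755 to 107887424), which with Rbm8a forms the core pair of the exon junction complex on spliced mRNA. Magoh stood at 455 and 459 TPM in the Obox3 clones, 192 and 269.5 TPM in the EGFP clones and 701 and 700.1 TPM in ICSI embryos, so the Obox3 clones held 65.3% of the ICSI level and the EGFP clones 32.9%. Rbm8a was less abundant, with 45.1 and 45.0 TPM in the Obox3 clones, 19.9 and 28.8 TPM in the EGFP clones and 85.2 and 82.6 TPM in ICSI embryos. For both genes the 3 groups did not overlap and the EGFP libraries were the most spread. They belong to 15 members for mRNA processing and export. Ncbp1, the large subunit of the nuclear cap-binding complex, had 98.0 and 93.7 TPM in the Obox3 clones, 41.6 and 58.7 TPM in the EGFP clones and 176 and 162 TPM in ICSI embryos. Nxf1, the main export receptor of mRNA, had 35.1 and 30.8 TPM in the Obox3 clones, 9.26 and 19.7 TPM in the EGFP clones and 42.2 and 54.0 TPM in ICSI embryos, its EGFP libraries lying far apart. The splicing factors Crnkl1, Sf3a1, Sf3b4 and Snrpe were also members. Over the 15, the Obox3 clones held 51.0% to 69.6% of the ICSI level.

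12 members act in the assembly of ribosomes or of small nucleolar ribonucleoproteins. Znhit6 and Nufip1 are assembly factors of box C/D particles, and Snu13 is a core protein of them. Znhit6 came closest to the fertilised level of the 12, with 93.3 and 76.8 TPM in the Obox3 clones, 21.3 and 32.0 TPM in the EGFP clones and 104 and 103 TPM in ICSI embryos. Nop2, an rRNA methyltransferase, had 95.6 and 98.3 TPM in the Obox3 clones, 40.1 and 55.6 TPM in the EGFP clones and 139 and 163 TPM in ICSI embryos. Over the 12, the Obox3 clones held 50.3% to 82.3% and the EGFP clones 19.2% to 31.7% of the ICSI level. A wider list of ribosome assembly genes puts these in proportion. Of its 69 genes, 64 were at the ICSI minimum, 8 were low in the EGFP clones and 4 of those 8 were members (Nop2, Nip7, Utp18 and Noc3l). The list as a whole summed to 4483 and 4334 TPM in the Obox3 clones, 2452 and 2968 TPM in the EGFP clones and 4925 and 5219 TPM in ICSI embryos. A list of 60 splicing factors had 49 genes at the ICSI minimum, 6 low in the EGFP clones and 4 members. Of 41 chaperone genes 39 were at the minimum, 1 was low in the EGFP clones and 0 were members, and of 72 oxidative phosphorylation genes 26 were at the minimum and 0 were low.

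14 members are sequence-specific transcription factors, and 6 more are general transcription machinery, among them the TFIID subunits Taf7 and Taf9. Rest, a repressor of neuronal genes, was the most abundant factor, with 165 and 162 TPM in the Obox3 clones, 82.5 and 111 TPM in the EGFP clones and 303 and 308 TPM in ICSI embryos. Taf7 had 178 and 138 TPM in the Obox3 clones, 69.6 and 84.3 TPM in the EGFP clones and 255 and 239 TPM in ICSI embryos. For these 2 genes the Obox3 libraries lay between the other groups without overlap. Ovol2 (chromosome 2, 144305175 to 144332080), a zinc finger factor of epithelia, had the highest ratio of the whole set, with 17.4 and 20.7 TPM in the Obox3 clones, 6.47 and 4.00 TPM in the EGFP clones and 18.0 and 18.0 TPM in ICSI embryos. Tead4 (chromosome 6, 128227143 to 128300813), the Hippo pathway factor that the mouse trophectoderm needs, stood at 13.3 and 12.4 TPM in the Obox3 clones, 3.74 and 3.56 TPM in the EGFP clones and 11.5 and 16.4 TPM in ICSI embryos. In both, the Obox3 libraries overlapped the ICSI libraries and the EGFP libraries lay below. Spic, an Ets family factor, was among the lowest in EGFP clones, with 36.4 and 31.2 TPM in the Obox3 clones, 5.09 and 5.24 TPM in the EGFP clones (12.4% of ICSI) and 38.0 and 45.1 TPM in ICSI embryos. Zfp296, a zinc finger protein, had 142 and 150.1 TPM in the Obox3 clones, 53.4 and 70.5 TPM in the EGFP clones and 243 and 270.2 TPM in ICSI embryos.

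Crxos (chromosome 7, 15882617 to 15904030), a homeobox gene named for its place opposite Crx, was the only member from a list of 11 Obox, Crx and related homeobox genes. It had 67.0 and 80.2 TPM in the Obox3 clones, 16.7 and 24.5 TPM in the EGFP clones and 110.2 and 121 TPM in ICSI embryos. 3 members belong to a list of 14 stem cell markers. Fgf4 (chromosome 7, 144861386 to 144865245), a growth factor of the inner cell mass, had the lowest EGFP level of all members as a share of ICSI, with 13.3 and 9.71 TPM in the Obox3 clones, 1.00 and 1.78 TPM in the EGFP clones (8.97% of ICSI) and 13.3 and 17.8 TPM in ICSI embryos. Esrrb, an orphan nuclear receptor of the naive stem cell state, had 8.65 and 6.93 TPM in the Obox3 clones, 1.35 and 3.67 TPM in the EGFP clones and 13.1 and 13.1 TPM in ICSI embryos. Dppa5a, an RNA-binding protein abundant in stem cells, had 53.3 and 71.0 TPM in the Obox3 clones, 22.5 and 22.4 TPM in the EGFP clones and 89.2 and 124 TPM in ICSI embryos. In all 4 genes both Obox3 libraries lay above both EGFP libraries. In Fgf4 replicate 1 of the Obox3 clones was level with the lower ICSI library, and replicate 2 lay below both ICSI libraries. Of a list of 47 genes of the 2-cell stage, 42 were at the ICSI minimum, 20 were low in the EGFP clones and 5 of those 20 were recovered. D5Ertd577e was the only one of the 5 with a symbol that the rule keeps, though it matched RefSeq only by a synonym, to a gene of the Prame family that the rule drops by symbol, so its place in the set is uncertain. It stood at 8.23 and 6.17 TPM in the Obox3 clones, 2.12 and 3.76 TPM in the EGFP clones and 11.6 and 8.44 TPM in ICSI embryos.

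7 metabolic enzymes came closest to the fertilised level of the larger role groups, with a median of 73.4% of ICSI in the Obox3 clones and 28.4% in the EGFP clones. Gldc (chromosome 19, 30098441 to 30175441), the decarboxylase of the glycine cleavage system, had the largest fold of the set. It stood at 69.2 and 52.2 TPM in the Obox3 clones, 3.72 and 10.3 TPM in the EGFP clones and 50.6 and 66.7 TPM in ICSI embryos, 8.68-fold higher in the Obox3 than in the EGFP clones. Npl (chromosome 1, 153503016 to 153549714), the lyase that degrades sialic acid, had 33.6 and 29.8 TPM in the Obox3 clones, 5.59 and 8.16 TPM in the EGFP clones and 29.5 and 35.4 TPM in ICSI embryos. Alppl2 (chromosome 1, 87086690 to 87095934), an alkaline phosphatase whose promoter window is shown above, had 149 and 168 TPM in the Obox3 clones, 59.1 and 87.0 TPM in the EGFP clones and 249.7 and 328 TPM in ICSI embryos. Gldc and Npl were thus level with ICSI embryos, while Alppl2 stayed near 1/2. Pdp2, a phosphatase that activates pyruvate dehydrogenase, reached 73.4% of ICSI, Cth, an enzyme of cysteine synthesis, 77.6%, Nudt4, a diphosphoinositol phosphatase, 68.9%, and Glul, glutamine synthetase, 55.6%. Slc1a1 (chromosome 19, 28835135 to 28913960), a glutamate transporter, had 8.05 and 5.10 TPM in the Obox3 clones, 0.658 and 2.64 TPM in the EGFP clones and 7.86 and 13.9 TPM in ICSI embryos, and its ICSI libraries were the most spread of any member's. Kcnk6, a potassium channel, had 15.5 and 17.8 TPM in the Obox3 clones, 3.20 and 4.65 TPM in the EGFP clones and 15.7 and 18.8 TPM in ICSI embryos.

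7 members serve chromosome segregation and genome maintenance, and all of them lay near the lower limit, with a median of 51.6% of ICSI in the Obox3 clones. Mad2l1bp (chromosome 17, 46147385 to 46153551), which silences the spindle checkpoint, had 106 and 119 TPM in the Obox3 clones, 50.6 and 60.2 TPM in the EGFP clones and 237 and 188 TPM in ICSI embryos. Katna1, the catalytic subunit of the microtubule-severing enzyme katanin, had 59.6 and 52.0 TPM in the Obox3 clones, 26.0 and 34.1 TPM in the EGFP clones and 122 and 101 TPM in ICSI embryos. Bod1l, which protects stalled replication forks, had 51.6 and 48.8 TPM in the Obox3 clones, 15.1 and 17.6 TPM in the EGFP clones (16.5% of ICSI) and 81.5 and 117 TPM in ICSI embryos. In the 3 genes the groups did not overlap. Cenps, a centromere and DNA repair protein, was the member with the smallest fold, 1.52-fold higher in the Obox3 than in the EGFP clones. Among 6 members of the ubiquitin pathway, Ube2o, a ubiquitin-conjugating enzyme, was the most abundant, with 145 and 156 TPM in the Obox3 clones, 55.8 and 80.3 TPM in the EGFP clones and 263 and 319 TPM in ICSI embryos, and Cops6, a COP9 signalosome subunit, had the lowest share of ICSI in the Obox3 clones of all members. The set also held 5 lipid and phosphoinositide enzymes (51.9% to 72.5% of ICSI in the Obox3 clones), 4 proteins of mitochondrial membranes and import (52.7% to 74.1%) and 2 of the nuclear pore and import.

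Other members by rank were less well placed in a role. AU015228 (chromosome 2, 130100394 to 130103375) was the second most abundant, with 192 and 182 TPM in the Obox3 clones, 52.9 and 70.7 TPM in the EGFP clones and 398 and 296 TPM in ICSI embryos. Btbd18, a BTB-domain protein that in mouse testis promotes transcription of piRNA precursors, had 163 and 135 TPM in the Obox3 clones, 45.5 and 55.4 TPM in the EGFP clones and 224 and 273 TPM in ICSI embryos. Exoc3l2, an exocyst-like protein, had 56.2 and 60.4 TPM in the Obox3 clones, 13.6 and 16.6 TPM in the EGFP clones and 90.8 and 91.4 TPM in ICSI embryos. These 3 genes shared an EGFP level of 16.6% to 20.3% of ICSI, below the median of the set. Ccdc137, a coiled-coil protein, had 42.8 and 45.9 TPM in the Obox3 clones, 9.62 and 16.4 TPM in the EGFP clones and 33.5 and 53.9 TPM in ICSI embryos, and Ccnq, the cyclin partner of Cdk10, reached 95.9% of ICSI with Obox3 libraries at 17.8 and 30.6 TPM. The lowest ratios beside Cops6, Katna1 and Cenps were those of Rprd2, Serinc3 and Trub2, at 50.1%, 50.1% and 50.3% of ICSI in the Obox3 clones.

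4 members are annotated pseudogenes, whose reads can come from a near-identical parent gene. Dppa3-ps had 31.0 and 15.7 TPM in the Obox3 clones, 7.12 and 12.3 TPM in the EGFP clones and 38.6 and 44.9 TPM in ICSI embryos. Its parent Dppa3, a maternal chromatin factor, was far more abundant, with 1122 and 1109 TPM in the Obox3 clones, 537 and 741 TPM in the EGFP clones and 1856 and 1671 TPM in ICSI embryos, in the same order of groups. Kat2b-ps had 21.0 and 21.8 TPM in the Obox3 clones, 6.99 and 10.3 TPM in the EGFP clones and 31.7 and 37.5 TPM in ICSI embryos, while Kat2b, a histone acetyltransferase, had 5.33 and 7.68 TPM in the Obox3 clones, 4.91 and 4.19 TPM in the EGFP clones and 2.24 and 2.72 TPM in ICSI embryos, in another order of groups. Glns-ps1 is a copy of Glul, itself a member, and Cbfa2t2-ps1 a copy of Cbfa2t2. The levels of the 4 pseudogenes are uncertain for that reason.

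The stem cell libraries were not used to choose the members and give a test of whether Obox3 changes the same genes in another cell. Members were measured there from a different start: 95 of the 113 stood at 1 TPM or more in both ES_Empty libraries, and 15 were below 1 TPM in both. Of the members 112 passed the filter on low values (Mbl2 did not), and a member that is low in ES_Empty could pass only where another group was high. With limma on log2(TPM + 1), 21 of the 112 were higher in ES_Obox3 than in ES_Empty and 6 were lower. Over all 20355 genes tested, 4.67% were called higher and 13.6% lower, where a call asks for an adjusted p under 0.05 and a log2 fold change of at least 1 in size. The members called higher were 18.8% of those tested, against 30 of 257 unrecovered genes (11.7%) and 6.54% of the genes at the ICSI minimum. The members called lower were 5.36%, against 11.7% and 14.2% in those 2 sets. The sets started from different levels, with a median ES_Empty mean of 14.7 TPM over the members and 6.27 TPM over the unrecovered genes. On the log2(TPM + 1) scale a call depends on that level, and its part in the shares was not tested. The median log2 fold change was -0.07 over the members, -0.22 over the unrecovered genes and -0.42 over all genes.

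The scale moves these counts. After median-ratio scaling the median of all genes shifted to 0.02, and 32 members were called higher (7.99% of all genes) and 1 lower (3.83% of all genes). The 32 include all 21, and the 1 was Tead4. Choosing the members after scaling the embryo table gave 21 higher and 6 lower of 99 tested, choosing them without EGFP replicate 2 gave 37 and 8 of 209, and choosing them without EGFP replicate 1 gave 16 and 5 of 68. 13 of the 21 remained members after the embryo table was scaled. On the raw TPM scale the list of 14 stem cell markers summed to 1302 to 1744 TPM in ES_Obox3, against 2486 to 2927 TPM in ES_Empty. A list of primitive endoderm and trophoblast markers summed to 67.2 to 83.6 TPM in ES_Obox3, against 36.2 to 42.6 TPM in ES_Empty. The median-ratio size factors were 1.13 and 0.753 in ES_Obox3 and 1.52 and 1.37 in ES_Empty. Raw sums are thus lowered in ES_Obox3 beside ES_Empty, and scaled sums were not computed. The part of these differences in the members' results was not tested.

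**Figure D3:**
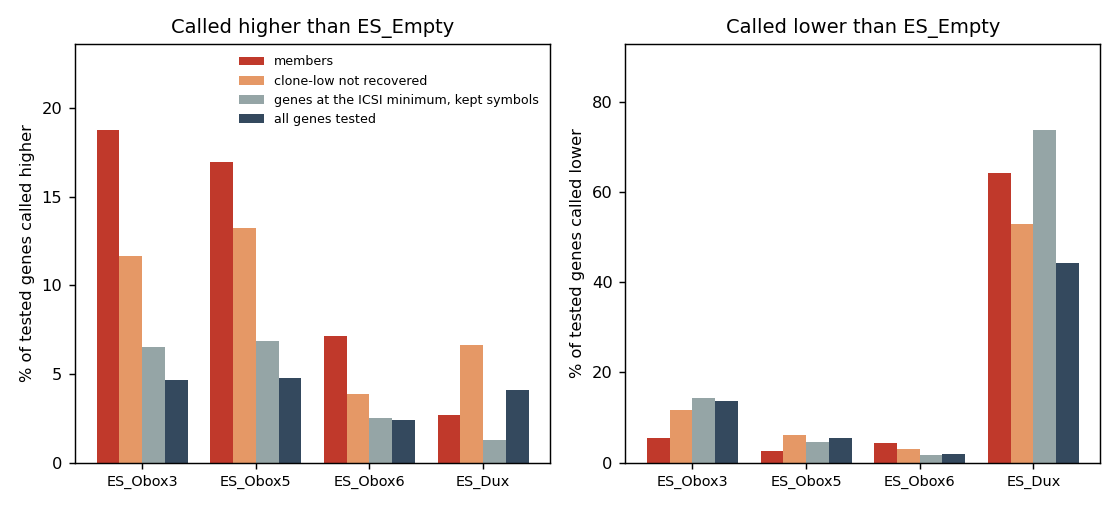
Bars give the percentage of tested genes called higher (left) or lower (right) than ES_Empty by limma in each transfected group. In ES_Obox3, 18.8% of the members were called higher. This was the case for 11.7% of the unrecovered genes, 6.54% of the genes at the ICSI minimum and 4.67% of all genes tested. In ES_Dux 64.3% of the members were called lower. There the shares were 52.9% of the unrecovered genes, 73.7% of the genes at the ICSI minimum and 44.4% of all genes.

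11 of the 21 members that rose were already at 1 TPM or more in ES_Empty, and 10 were below it. Alppl2 rose the most on the log2(TPM + 1) scale. It stood at 26.0 and 17.9 TPM in ES_Obox3, 17.4 and 17.6 TPM in ES_Obox5, 1.86 and 1.86 TPM in ES_Obox6, 0.0626 and 0.621 TPM in ES_Dux and 0 and 0.364 TPM in ES_Empty (log2 fold change in ES_Obox3 4.27, SE 0.271, limma adjusted p = 6.14e-05). Crxos stood at 34.1 and 24.1 TPM in ES_Obox3, 24.6 and 18.4 TPM in ES_Obox5, 11.2 and 7.15 TPM in ES_Obox6, 0.143 and 0.406 TPM in ES_Dux and 0.363 and 0.960 TPM in ES_Empty (4.18, SE 0.295, adjusted p = 9.15e-05 by limma). In both genes every library of the 3 Obox groups lay above every library of ES_Dux and ES_Empty, and ES_Obox6 was the lowest of the 3. Slc1a1 rose to 14.2 and 8.59 TPM in ES_Obox3, against 0.228 and 0.137 TPM in ES_Empty (3.35, SE 0.242, adjusted p = 9.95e-05 by limma). Exoc3l2 rose to 11.2 and 8.97 TPM, against 0.334 and 0.0511 TPM in ES_Empty (3.22, SE 0.231, adjusted p = 9.61e-05 by limma). Levels under 1 TPM in ES_Empty rest on few reads, and the libraries of the 2 groups did not overlap in these 4 genes.

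Other members that rose were already at 1 TPM or more in ES_Empty. Mad2l1bp rose to 80.9 and 62.0 TPM in ES_Obox3, against 9.92 and 4.52 TPM in ES_Empty (3.21, SE 0.313, adjusted p = 0.000327 by limma). Its ES_Empty libraries lay far apart, and its SE was larger than those of the 4 genes above. Pdp2 rose to 50.8 and 33.1 TPM, against 4.86 and 4.47 TPM in ES_Empty (2.89, SE 0.234, adjusted p = 0.000168 by limma). Gldc rose to 49.5 and 42.2 TPM, against 11.7 and 8.96 TPM in ES_Empty (2.05, SE 0.192, adjusted p = 0.000286 by limma). Npl rose to 17.0 and 12.0 TPM, against 1.90 and 1.18 TPM in ES_Empty (2.61, SE 0.224, adjusted p = 0.000215 by limma). Of the 7 metabolic enzymes 5 were called higher: Pdp2, Gldc, Npl, Alppl2 and Cth (1.35). The group was formed after the values were seen, and 18.8% of all members tested were called higher. Glul and Nudt4 had log2 fold changes of 0.87 and 0.99, under the limit of 1. The others called higher were AU015228 (3.42), the pseudogenes Dppa3-ps (2.67) and Kat2b-ps (2.62), Sgpp1, a sphingosine-1-phosphate phosphatase (2.29), Ubtfl1, an HMG-box gene of early mouse embryos (1.94), Btbd18 (1.89), Tor2a, a torsin (1.81), Med27, a Mediator subunit (1.61), Katna1 (1.46), Ovol2 (1.32), Ncbp1 (1.23) and D5Ertd577e (1.22). Ovol2 and D5Ertd577e lost the call without either ES_Empty library, without ES_Obox3 replicate 1 or with no filter, D5Ertd577e also without the unnumbered ES_Obox3 library, and Ncbp1 lost it without ES_Obox3 replicate 1.

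Dppa3-ps, listed at 0 in both ES_Empty libraries and at 5.19 and 5.56 TPM in ES_Obox3, moved with Dppa3, which stood at 260.3 and 199 TPM in ES_Obox3 and 3.31 and 2.07 TPM in ES_Empty. The size of its fitted change depends on the pseudocount. Kat2b-ps stood at 9.12 and 5.18 TPM in ES_Obox3 and 0.324 and 0.247 TPM in ES_Empty, whereas Kat2b stood at 17.7 and 13.6 TPM in ES_Obox3 and 23.5 and 20.7 TPM in ES_Empty.

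**Figure D4:**
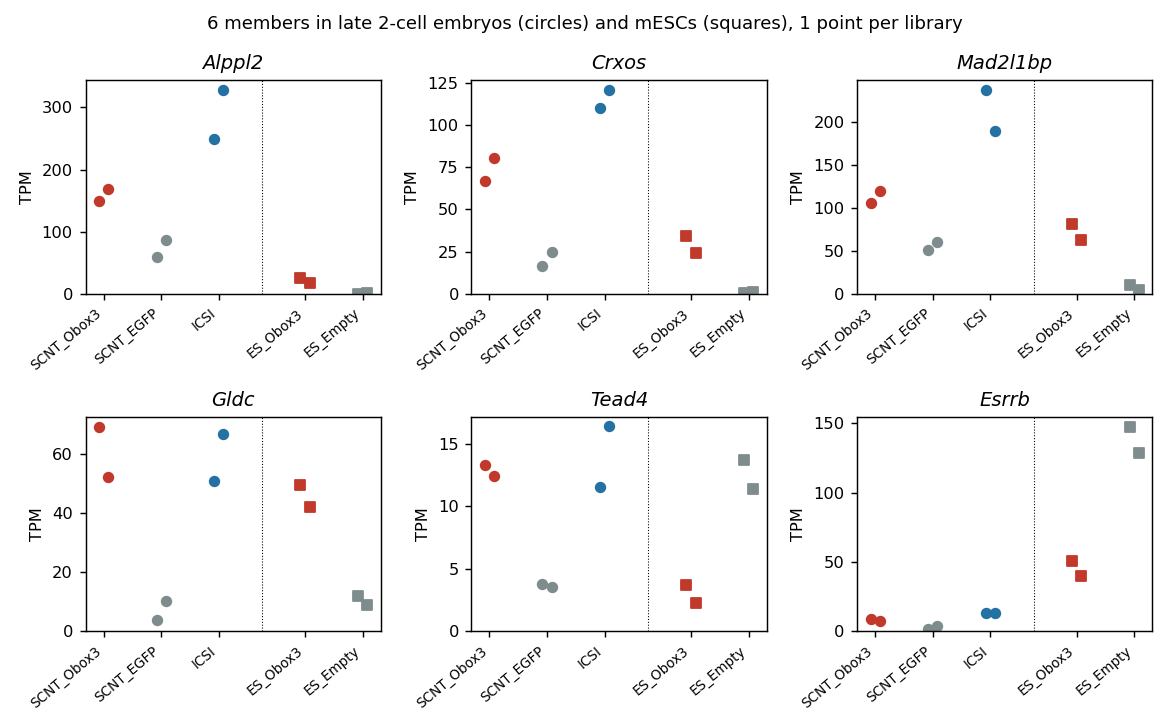
TPM of 6 members, 1 point per library, in late 2-cell embryos (circles, left of the dotted line) and in stem cells (squares, right of it), each panel with its own axis from 0. Alppl2, Crxos, Mad2l1bp and Gldc were higher with Obox3 in both settings, and Tead4 and Esrrb were higher with Obox3 in clones and lower in ES_Obox3 than in ES_Empty.

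6 members fell in ES_Obox3, 4 of them transcription factors. Tead4 fell to 3.71 and 2.26 TPM in ES_Obox3, against 13.7 and 11.4 TPM in ES_Empty (-1.78, SE 0.240, adjusted p = 0.00134 by limma). Esrrb fell to 50.6 and 39.5 TPM, against 147 and 129 TPM in ES_Empty (-1.60, SE 0.188, adjusted p = 0.000745 by limma). Both genes were higher in the Obox3 clones than in the EGFP clones in every library. Zbtb7a, a BTB zinc finger repressor, fell to 3.47 and 2.47 TPM, against 10.6 and 8.95 TPM in ES_Empty (-1.45), and Klf16, a Krüppel-like factor, to 7.27 and 5.28 TPM, against 16.7 and 13.7 TPM (-1.17). Dyrk3, a kinase that dissolves condensates, had 10.1 and 7.34 TPM in ES_Obox3 and 24.1 and 20.7 TPM in ES_Empty (-1.28), and AA414768 had 1.68 and 1.40 TPM in ES_Obox3 and 5.56 and 4.57 TPM in ES_Empty (-1.25). After median-ratio scaling the call held for Tead4 (-1.22), and the other 5 kept their sign at -0.58 to -0.96 without reaching the limit. Klf16 also lost the call without ES_Empty replicate 1 and without the unnumbered ES_Obox3 library. Without ES_Obox3 replicate 1, 11 members were called lower, these 6 among them. Fgf4 and Dppa5a, the other stem cell markers of the set, had log2 fold changes of -0.76 and -0.67 and were not called.

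The 85 members that were not called in ES_Obox3 had log2 fold changes from -0.95 to 0.99. They include most of the RNA processing genes and all 12 of the ribosome and snoRNP assembly group. Magoh had 166 and 129 TPM in ES_Obox3 and 167 and 141 TPM in ES_Empty (-0.07, SE 0.197). Nop2 had 73.4 and 49.0 TPM in ES_Obox3 and 78.1 and 70.0 TPM in ES_Empty (-0.30, SE 0.216). Rest had 99.6 and 67.8 TPM in ES_Obox3 and 107 and 86.8 TPM in ES_Empty (-0.22, SE 0.236). In these 3 genes the libraries of the 2 groups overlapped. Of the 15 mRNA processing genes, Ncbp1 was the only one called higher and 0 were called lower, and the group's median was -0.24. The median of the 12 assembly genes was -0.23, with a range from -0.80 to 0.28. The whole list of 69 ribosome assembly genes had 0 genes called higher and 1 lower in ES_Obox3, with a median of -0.36, and the list of 60 splicing factors had 0 higher and 2 lower, with a median of -0.51. The median of all genes was -0.42.

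The other plasmids were compared with the same ES_Empty libraries, so their comparisons with ES_Empty are not independent of the one above and are given side by side. In ES_Obox5, 19 members were called higher and 3 lower (4.79% and 5.47% of all genes), in ES_Obox6 8 higher and 5 lower (2.39% and 1.99%), and in ES_Dux 3 higher and 72 lower (4.12% and 44.4%). After median-ratio scaling the counts were 23 and 1 in ES_Obox5 (6.2% and 2.42% of all genes) and 8 and 3 in ES_Obox6 (2.85% and 1.34%). 18 of the 21 members that rose in ES_Obox3 were also called in ES_Obox5, and 8 of them in ES_Obox6: Alppl2, Crxos, Slc1a1, Exoc3l2, Pdp2, Npl, Sgpp1 and Gldc. The matching shares over all genes called higher in ES_Obox3 were not counted. Katna1, Med27, Ubtfl1 and Btbd18 lost the ES_Obox5 call when certain single libraries of ES_Empty or ES_Obox5 were left out. Alppl2 lost its ES_Obox6 call (log2 fold change 1.29, adjusted p = 0.0301 by limma) under every alternative scale, pseudocount, filter and fit and with any 1 of the 4 libraries left out. Sgpp1 had 10.3 and 6.75 TPM in ES_Obox3, 7.69 and 6.53 TPM in ES_Obox5, 9.63 and 8.25 TPM in ES_Obox6, 0.350 and 0.142 TPM in ES_Dux and 0.951 and 0.871 TPM in ES_Empty. Gldc had 47.6 and 47.4 TPM in ES_Obox5, 60.8 and 54.9 TPM in ES_Obox6 and 6.68 and 8.05 TPM in ES_Dux. The log2 fold changes in ES_Obox3, ES_Obox5 and ES_Obox6 were 2.29, 2.08 and 2.38 for Sgpp1 and 2.05, 2.11 and 2.38 for Gldc. Mad2l1bp was higher in ES_Obox5 (3.07) and not called in ES_Obox6 (1.04, SE 0.313, adjusted p = 0.105 by limma). Irgq, a GTPase-family protein, was called higher in ES_Obox5 (1.59) and not in ES_Obox3 (0.87). The difference between those plasmids was not tested. The 5 members lower in ES_Obox6 were Timm10, a chaperone of mitochondrial import (-1.90), Esrrb (-1.39), Zfp296 (-1.20), AA414768 (-1.11) and Tead4 (-1.07). Of these, Esrrb kept its call after scaling, with the other pseudocount, filter and fit and with each library left out. Tead4 and AA414768 lost theirs under all of these alternatives, Zfp296 with any 1 of the 4 libraries left out, with no filter or with 2 groups in the fit, and Timm10 without ES_Empty replicate 1 or ES_Obox6 replicate 1.

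**Figure D5:**
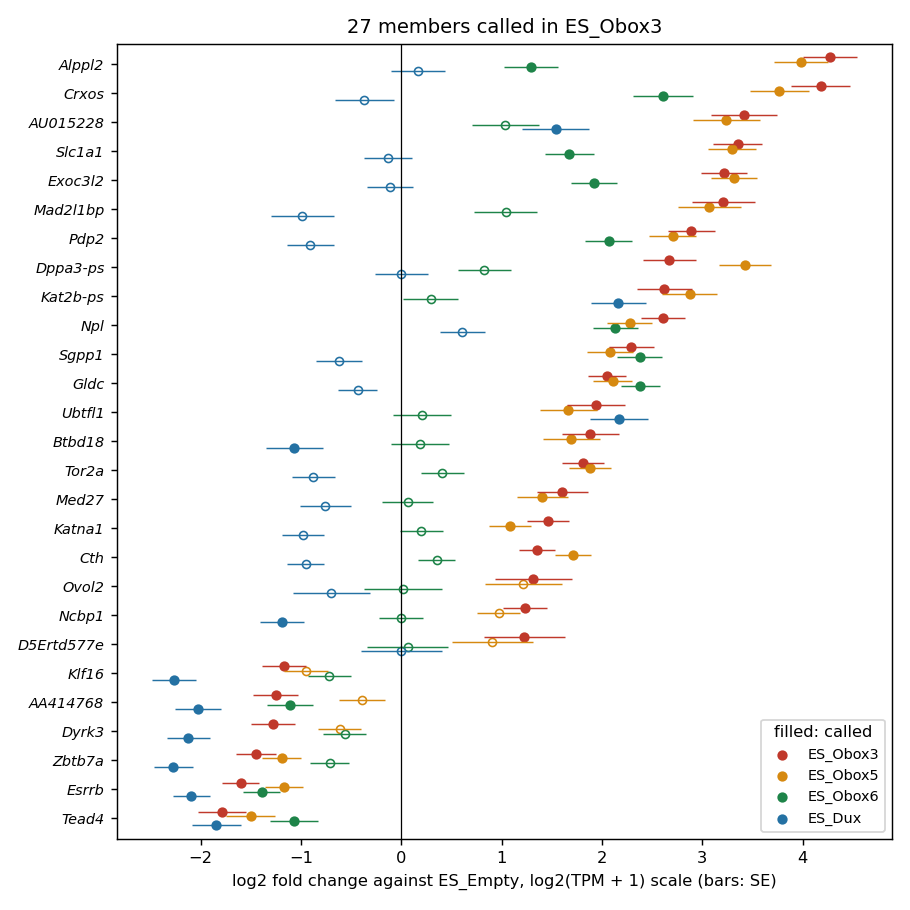
Log2 fold change against ES_Empty on the log2(TPM + 1) scale, with its SE, for the 27 members called in ES_Obox3, in ES_Obox3 (red), ES_Obox5 (orange), ES_Obox6 (green) and ES_Dux (blue). Filled points were called by limma. Most of the 21 members that rose in ES_Obox3 lie near their ES_Obox5 value and near or below 0 in ES_Dux.

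Dux, another homeobox gene of the 2-cell stage, gave a different picture. 3 members were called higher in ES_Dux: Ubtfl1 (2.17), Kat2b-ps (2.16) and AU015228 (1.54). Ubtfl1 had 3.63 and 3.53 TPM in ES_Obox3, 4.78 and 4.02 TPM in ES_Dux and 0.364 and 0.0463 TPM in ES_Empty. The 72 members called lower in ES_Dux (64.3% of those tested) are to be read against 44.4% of all genes and 73.7% of the genes at the ICSI minimum. The largest decreases were those of Fgf4 (-3.06), Timm10 (-2.73), Klf9 (-2.32) and Zbtb7a (-2.27). After median-ratio scaling 4 members were called higher and 8 lower in ES_Dux, against 8.33% and 2.2% of all genes. All 6 members that fell in ES_Obox3 were also called lower in ES_Dux, as were 44.4% of all genes, and both comparisons share ES_Empty. Of the 6, Dyrk3, Esrrb and Tead4 lost the ES_Dux call after median-ratio scaling. Zbtb7a, Klf16 and AA414768 kept it under every alternative of the fit. Ncbp1 and Btbd18 were called higher in ES_Obox3 and lower in ES_Dux. Both lost the ES_Dux call after median-ratio scaling, where the log2 fold change of Ncbp1 turned to 0.21, and Btbd18 also lost it without ES_Empty replicate 2 or ES_Dux replicate 1. Ncbp1 lost its ES_Obox3 call without ES_Obox3 replicate 1.

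Compared directly, 71 members were higher in ES_Obox3 than in ES_Dux and 0 were lower, against 20.3% and 3.42% of all genes. The share of members higher, 63.4%, is to be set beside 45.9% of the unrecovered genes and 41.6% of the genes at the ICSI minimum. After median-ratio scaling 43 were higher and 0 lower, against 9.46% and 9.52%. The 21 members that rose in ES_Obox3 were picked by high values in the same ES_Obox3 libraries that enter this comparison. A higher level than in ES_Dux is thus largely fixed for them, and their count is a description. Of the 21, 19 were higher in ES_Obox3 than in ES_Dux, among them Crxos (4.55, SE 0.295, adjusted p = 2.21e-05 by limma), Mad2l1bp (4.20, SE 0.313, adjusted p = 4.17e-05 by limma) and Pdp2 (3.80, SE 0.234, adjusted p = 1.74e-05 by limma). The exceptions were Kat2b-ps (0.46, SE 0.272, adjusted p = 0.235 by limma) and Ubtfl1 (-0.23, SE 0.289, adjusted p = 0.578 by limma), which were not called.

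The 9 constructs with 1 library each allow no test, and members are counted there that differed from the ES_Empty mean by at least 1 on the log2(TPM + 1) scale. ES_Obox8 had 7 members higher (6.25% of the members, against 5.61% of all genes) and 1 lower, Tead4 (4.24% of all genes). The 7 were Mad2l1bp, Npl, Slc1a1, Tor2a, Misp3, Gldc and Spic, of which all but Misp3 and Spic were called in ES_Obox3. Mad2l1bp had 29.7 TPM in ES_Obox8, against 9.92 and 4.52 TPM in ES_Empty, and Slc1a1 had 2.47 TPM, against 0.228 and 0.137 TPM. The share is near that of all genes, so it is no result about the set. In the 3 Crxos libraries the gene on the plasmid, Crxos, stood at 2819, 1243 and 1458 TPM, and Alppl2 was listed at 0 in each. Beside Crxos, 1 member was higher in them, Neurl2 in ES_Crxos1, and 0 were lower, where 3.11%, 2.72% and 5.76% of all genes were higher and 3.31%, 3.85% and 2.63% lower in ES_Crxos1, ES_Crxos2 and ES_Crxos3. ES_Obox1 had 1 member higher and 0 lower (2.42% and 5.14% of all genes), ES_Obox2 had 0 and 0 (2.2% and 4.41%), and ES_Obox7 had 1 and 0 (5.36% and 3.69%). ES_Obox4ps27 had 0 higher and 1 lower (3.29% and 4.29% of all genes), and ES_Obox4ps35 had 1 and 1 (2.49% and 5.66%). In none of these 8 libraries did more than 2 members pass in either direction.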

How the data were processed

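Gene-level TPM tables of 6 embryo and 19 stem cell libraries were used as deposited. Per the submitters' processing notes, the tools of the series include Trim Galore, HISAT2 and featureCounts 1.6.5 with the mm10 build, named with no role or order. The authors scaled the deposited TPM values by gene length and library, each column summing to the same total, per the file headers and the values. Gene annotation and strand setting are not stated. The other 63 of 88 samples were not used here. The members, role groups and gene lists were chosen with earlier results of these data known. Embryo values were compared on the raw TPM scale with no test, since all 3 groups entered the choice. Stem cell libraries were fitted with limma 3.58.1 in R 4.3.3 on log2(TPM + 1), with trended and robust variance, over 10 libraries of 5 groups. Genes needed at least 1 TPM in at least 2 libraries, and p-values were adjusted by Benjamini-Hochberg over 20355 genes. Genes were called at adjusted p-values under 0.05 where the log2 fold change was 1 or more in size. The fit was tested on simulated data. In ES_Obox3, ES_Dux and ES_Obox5, 1 of the 2 libraries carries a replicate number in its header that no sample label of the group has. It is called unnumbered, its match to a labelled sample is unsure, and its values are given second. Named were the members with the highest ICSI level, the highest and lowest ratios, the largest calls and those in fixed lists or shared roles; Rbm8a, Ncbp1, Nxf1, Znhit6 and others in a role group are its examples. Alternatives were another scale, pseudocount, filter and fit, each library left out, and other limits. Coordinates and promoter windows are RefSeq on GRCm38.p6.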

Additional observations from a re-analysis of the deposited data

Results flagged for a closer look

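6 members moved in opposite directions with Obox3 in the 2 settings. In each, both libraries of SCNT_Obox3_L2C lay above both of SCNT_EGFP_L2C, a direction that the choice of members largely fixes, and both libraries of ES_Obox3 lay below both of ES_Empty. The log2 fold change in ES_Obox3 against ES_Empty was -1.78 for Tead4, -1.60 for Esrrb, -1.45 for Zbtb7a, -1.28 for Dyrk3, -1.25 for AA414768 and -1.17 for Klf16, on the log2(TPM + 1) scale. The 6 are 5.36% of the members tested, below the 13.6% of all genes called lower. After median-ratio scaling Tead4 kept its call and the other 5 did not. The difference between the settings was not tested.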

How the results depend on the processing

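Membership moved with the scale, the limits and the libraries: 55 of the 113 members still passed after median-ratio scaling, 27 genes passed with EGFP clones at no more than 1/4 of ICSI, 28 with Obox3 clones at no less than 2/3, and 69 to 211 with 1 embryo library left out. After median-ratio scaling 32 members were higher and 1 lower in ES_Obox3, 8 were lower in ES_Dux, 1 lower in ES_Obox5 and 3 lower in ES_Obox6, and 43 differed between ES_Obox3 and ES_Dux. The log2 fold change of Ncbp1 in ES_Dux turned to 0.21. Members lower in ES_Obox6 numbered 3 with a pseudocount of 0.1, 2 with no filter and 2 with only the 2 groups in the fit. The causes were not tested. With 1 stem cell library left out, or members chosen without 1 EGFP library (added after seeing the data), 16 to 37 members were higher in ES_Obox3 and 5 to 11 lower, 3 higher and 66 to 76 lower in ES_Dux, 16 to 18 higher and 2 to 3 lower in ES_Obox5, 7 to 8 higher and 1 to 2 lower in ES_Obox6, and 56 to 80 differed between ES_Obox3 and ES_Dux; a group left with 1 library is assumed to vary like the others. With the replicate block, possible for the 4 libraries of ES_Obox6 and ES_Empty, 0 members were called higher and 0 lower, on few degrees of freedom. Same-numbered libraries of these groups deviated together with a correlation of 0.0457. That value gives no sign of a pairing by number, but 1 correlation from 2 groups cannot exclude it. No other comparison shares 2 numbers. Of the 21 members higher in ES_Obox3, 18 were called under every alternative of the fit. TPM of low genes rest on few reads, which limits the size of their changes.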
